A study of Mus musculus with 34 samples.

Results

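KO-only CTCF peaks are the peaks of the CTCF list from unstimulated CTCF-deficient dendritic cells that overlapped no CTCF peak of either list from CTCF-sufficient cells. They numbered 4370 of the 20151 peaks in that list (21.7%), in a series of 1393623 peaks over 30 lists. Members were chosen by the CTCF calls themselves: a peak counted when it shared not a single base pair with a peak of the unstimulated or the LPS-stimulated wild-type list. Their CTCF enrichment and their absence from the wild-type lists are therefore given as a description only. The remaining 15781 peaks of the same list, which did overlap a wild-type CTCF peak, are called shared peaks.

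The cells were bone marrow-derived dendritic cells (BMDCs) of C57BL/6 mice aged 8 weeks, grown with GM-CSF for 6 days and then selected for CD11c. CTCF-WT mice carried only Rosa26-CreER, a Cre recombinase that tamoxifen switches on, and CTCF-KO mice carried it together with loxP-flanked alleles (CTCF fl/fl). All cultures, controls included, received 4-OH tamoxifen on the first day. Cells stayed unstimulated (WT and KO) or were given 100 ng/ml of LPS, which stimulates TLR4, over 3 h (WTLPS and KOLPS). Every condition had lists for H3K4me3, H3K27ac, H3K4me1, H3K27me3, CTCF, p65 (a subunit of NF-kB) and SMC1 (a subunit of cohesin). STAT5 was profiled in WT and KO only, 15 min after GM-CSF was added back. There was 1 list per antibody and condition, of unstated origin (a single replicate or a pool), so differences between lists have no replicate check. Such cultures are mixtures of cells in which deletion need not be complete, and the lists do not measure it.

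CTCF is a zinc finger protein that binds a long, G- and C-rich sequence and halts cohesin, the ring that extrudes chromatin loops. H3K4me3 marks the nucleosomes around the starts of active genes, H3K27ac marks active promoters and enhancers, and H3K4me1 lies at enhancers and at the flanks of promoters. H3K27me3 is the mark of Polycomb repression. STAT5 is the factor activated by GM-CSF, and p65 enters the nucleus after LPS. ChIP-seq peaks can hold a factor bound to its own sequence, a factor held there by other proteins, or chromatin that is recovered with any antibody.

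In all 4 conditions, an H3K4me3 peak lay at the promoter of 7 of 9 dendritic cell and myeloid marker genes, among them Itgax, which encodes CD11c, and Spi1, which encodes PU.1. The exceptions were H2-Ab1 and Cd209a. None of the T cell, NK cell, neutrophil or mast cell markers had one, whereas Pax5 of the B cell list did. The immunoglobulin heavy chain (Igh) locus stood apart: KO and KOLPS lists of every antibody held more peaks there than the wild-type lists, as described further on. It held 189 of the KO-only peaks, and results that rest on it are given with and without it.

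The sequences at the summits show how KO-only peaks differed from shared ones. The 101 bases centred on the summit are printed on the plus strand of GRCm38 (mm10). The first set holds 6 of the strongest KO-only peaks by −log10 q at promoters with an H3K4me3 peak, with capitals marking uninterrupted runs of A and T of at least 8 bases.

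Ero1lb (chr13:12567725-12567825): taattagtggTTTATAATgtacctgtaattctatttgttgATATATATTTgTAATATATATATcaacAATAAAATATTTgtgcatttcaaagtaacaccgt
Sept10 (chr10:59220598-59220698): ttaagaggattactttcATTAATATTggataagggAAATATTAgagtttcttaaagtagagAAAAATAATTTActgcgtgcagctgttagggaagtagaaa
Ascc3 (chr10:50595300-50595400): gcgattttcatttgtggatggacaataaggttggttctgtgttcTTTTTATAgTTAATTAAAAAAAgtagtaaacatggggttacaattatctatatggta
Ska3 (chr14:57824627-57824727): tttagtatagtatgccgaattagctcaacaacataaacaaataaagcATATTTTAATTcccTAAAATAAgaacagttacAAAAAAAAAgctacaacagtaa
Mki67 (chr7:135714182-135714282): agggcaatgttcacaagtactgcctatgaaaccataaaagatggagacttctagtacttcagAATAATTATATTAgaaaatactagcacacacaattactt
Pnpt1 (chr11:29131805-29131905): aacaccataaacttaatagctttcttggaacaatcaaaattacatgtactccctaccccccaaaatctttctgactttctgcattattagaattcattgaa

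Runs of A and T recurred in 5 of these 6 windows, and none held a recognisable CTCF core. A pair of KO-only peaks at signalling genes, and the 2 with the highest fold of all, which lay in the Igh locus, are shown with the same capitals because the results below return to them.

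Map3k7 (chr4:31965159-31965259): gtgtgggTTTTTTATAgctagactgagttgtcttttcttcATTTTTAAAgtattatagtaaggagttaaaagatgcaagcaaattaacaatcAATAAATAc
Jak1 (chr4:101263563-101263663): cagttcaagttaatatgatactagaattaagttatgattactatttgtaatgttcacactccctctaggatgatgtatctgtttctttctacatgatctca
Igh, near Ighv1-55 (chr12:115204116-115204216): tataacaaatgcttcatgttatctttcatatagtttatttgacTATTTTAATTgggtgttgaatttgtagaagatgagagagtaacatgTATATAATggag
Igh, near Ighv8-12 (chr12:115641708-115641808): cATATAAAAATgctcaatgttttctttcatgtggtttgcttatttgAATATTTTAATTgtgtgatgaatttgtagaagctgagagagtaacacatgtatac

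The next set holds, for contrast, 3 strong shared peaks and the single KO-only peak with a CTCF core, named by the nearest gene. Capitals mark the core in either orientation.

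Gm31371 (chr8:20122185-20122285): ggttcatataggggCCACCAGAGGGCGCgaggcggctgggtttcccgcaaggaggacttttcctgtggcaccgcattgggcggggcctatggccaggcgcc
Hcn4 (chr9:58928253-58928353): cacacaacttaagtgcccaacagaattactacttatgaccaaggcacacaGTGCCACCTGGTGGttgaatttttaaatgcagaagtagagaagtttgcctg
A730009L09Rik (chr16:84559758-84559858): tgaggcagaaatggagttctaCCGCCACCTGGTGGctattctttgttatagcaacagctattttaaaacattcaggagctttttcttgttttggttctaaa
Kcnmb2 (chr3:31769325-31769425): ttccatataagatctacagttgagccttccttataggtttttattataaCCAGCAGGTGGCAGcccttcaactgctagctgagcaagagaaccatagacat

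KO-only peaks were weak and narrow within their own list, which is a description because the same CTCF calls chose them. Their fold enrichment, the ratio of fragment pileup to local background, ranged from 1.92 to 17.5 with a median of 4.56, against a median of 6.33 for shared peaks. The median −log10 q was 5.67 against 11.4, and the median width 356 bp against 450 bp. In the ranking by −log10 q, 84.0% of the KO-only peaks fell in the weaker 50% of the KO list and 8 fell in the strongest 10%, while 52.7% of the weakest 10% were KO-only.

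The weakest members lay close to the limit of detection. The number of fragments behind a peak could be recovered for 4343 of them and ranged from 15 to 98, with a median of 17 against 21 for shared peaks. At the usual background of 2.95 fragments per base in KO, 15 fragments were the fewest that gave a peak. In WT and WTLPS the background was higher, at 3.74 and 3.53, and 17 were needed. Dividing the fewest fragments by this background gave 5.08 in KO, above the 4.55 in WT and 4.81 in WTLPS. The fold values are on another scale, with a constant added to both terms, and are lower than this ratio. Scaled from the KO to the WT background, the fragments of all 4343 reached the WT minimum, as the lower ratio in WT implies. Why no wild-type peak was called there was not tested.

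The rule cut through a continuous range of distances. Between a KO-only peak and the nearest WT or WTLPS CTCF peak the median gap was 5445 bp, the smallest was 2 bp, and 273 members (6.25%) lay closer than 500 bp. The 20 members nearest to such a peak, at most 66 bp away, had a median fold of 4.3 and a median −log10 q of 4.93. The 20 shared peaks of smallest overlap, at most 34 bp, had the same medians.

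The first comparison asked where in genes the KO-only peaks lay. Of the 4370, 2413 lay at a promoter, within 2.5 kb of a start site (55.2%, 95% Wilson interval 53.7 to 56.7%), against 31.9% of all KO CTCF peaks and 25.5% (24.8 to 26.2%) of shared ones. Intervals here and below cover counting error only. A further 1244 (28.5%) lay in introns, 248 (5.68%) in exons and 465 (10.6%) outside genes, where 34.4% of shared peaks lay. With promoters cut to 1 kb on either side of the start, the share fell to 24% (22.8 to 25.3%) of KO-only and 14.3% (13.7 to 14.8%) of shared peaks. WT CTCF peaks that had no partner in KO or KOLPS were at promoters in 17.9% of cases.

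At promoters, KO-only summits kept away from the start site itself and lay mostly downstream of it. Only 6 summits (0.137%, 0.0629 to 0.299%) were within 200 bp of a protein-coding start, against 428 (2.71%, 2.47 to 2.98%) of the shared ones. Chosen after their values were seen, the genes of these 6 were Zfp748, Gm11096, Fastkd1, Mbnl1, Gnpda2 and Gm10721. Between 200 bp and 5 kb from the nearest start, 2326 KO-only summits (53.2%) lay downstream and 507 (11.6%) upstream. Shared peaks were close to even there, with 1668 (10.6%) downstream and 1821 (11.5%) upstream. The interval from 1 to 2.5 kb downstream was the fullest of those counted, with 1306 KO-only summits (29.9%) against 4.98% of shared ones.

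**Figure D1:**
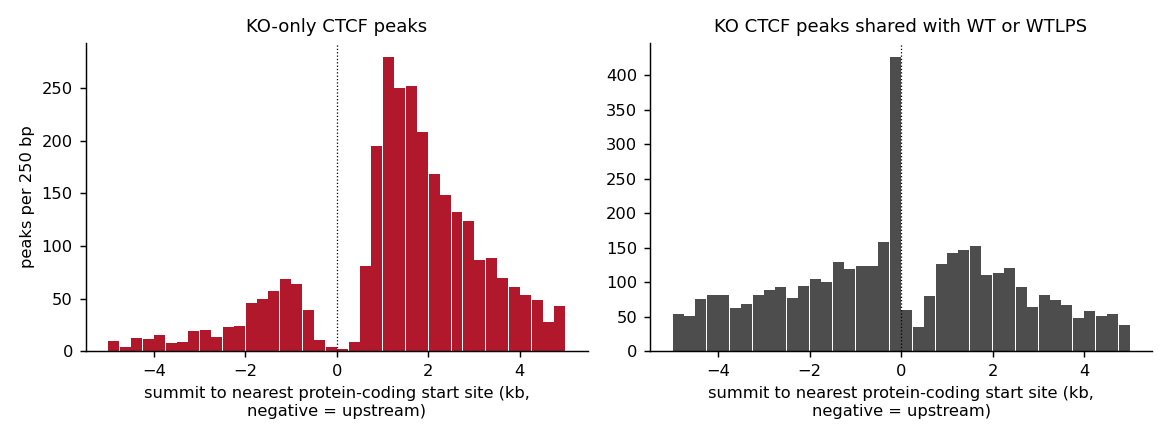
Number of CTCF peak summits per 250 bp (vertical axis) by distance in kb from the nearest protein-coding start site (horizontal axis, negative values upstream), for KO-only and shared peaks of the KO list. KO-only summits leave a gap at the start, with 6 within 200 bp, and gather downstream of it, whereas 428 shared summits lie within 200 bp.

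The genes at these promoters were counted next. A KO-only peak overlapped the promoter of 2023 of 21938 protein-coding genes (9.22%), and 1518 of these genes held 1 such peak, 409 held 2 and 96 held 3 or more. The zinc finger genes Zfp942 and Zfp943 held the most, 5 each, and belong to a family of near-identical genes between which reads may be split. A WT or WTLPS CTCF peak elsewhere in the promoter was found at 795 of the 2023 genes (39.3%), against 31.7% of all protein-coding genes. These 2 shares differ in H3K4me3 too, since nearly all of the 2023 genes carried it. Shared CTCF peaks lay at 18.9% of promoters with KO H3K4me3 and 3.53% of those without. The share with a WT or WTLPS CTCF peak was not counted among genes with H3K4me3.

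Nearly all of these promoters carried H3K4me3. Of 12870 genes with a KO H3K4me3 peak at the promoter, 2011 held a KO-only CTCF peak (15.6%), whereas 12 of the 9068 genes without one did (0.132%, 0.0757 to 0.231%). Ranked by the −log10 q of that H3K4me3 peak, the share was 0.466% (0.214 to 1.01%) in the weakest 10% of promoters, 16.6% in the fifth group of 10, 28.4% (26.0 to 31.0%) in the ninth and 26.1% (23.8 to 28.6%) in the strongest. The ranking by the WT H3K4me3 list, made in other cells than the CTCF list that chose the members, gave 0.392% in the weakest group, 27.7% in the ninth and 24.9% in the strongest. Shared peaks rose less steeply along the KO ranking, from 8.62% to 24.9%. A higher H3K4me3 peak thus went with more KO-only peaks up to the ninth group, whichever genotype ranked the promoters.

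**Figure D2:**
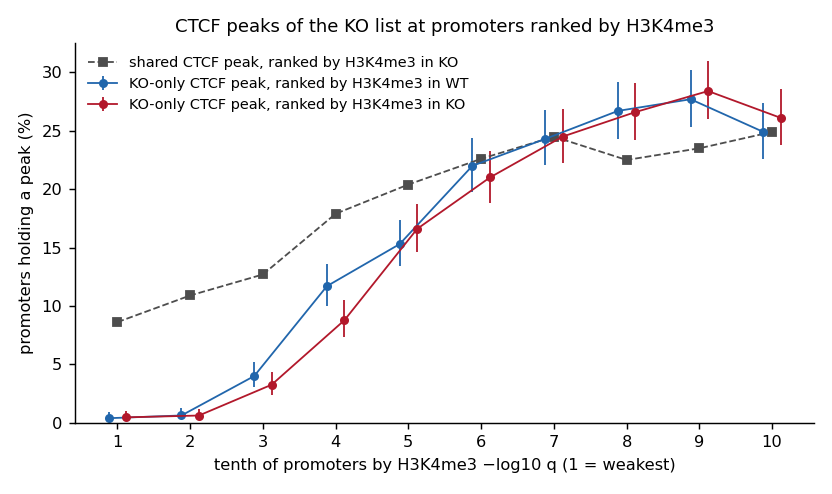
Share of promoters (vertical axis, %) that hold a KO-only or a shared CTCF peak, for 10 equal groups of promoters ordered by the −log10 q of their H3K4me3 peak (horizontal axis, 1 is weakest). Error bars are 95% Wilson intervals. For KO-only peaks the share rises from 0.466% to 28.4% in the ninth group of the KO ranking and the WT ranking runs alongside, while shared peaks start at 8.62%.

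Gene lists are described by how many members held a KO-only peak at the promoter, beside the 9.22% of all protein-coding genes and the 15.6% of those with KO H3K4me3. Several lists of housekeeping genes were above both: 20 of 74 genes of RNA polymerase II and the general transcription factors, 18 of 68 splicing factors, 12 of 48 proteasome genes, 19 of 77 mitochondrial ribosomal proteins and 16 of 67 replication-dependent histones. Translation factors (10 of 68, 14.7%) and zinc finger genes of the Zfp series (56 of 365, 15.3%) lay between the 2 levels. Counting only genes with KO H3K4me3, the translation factors (9 of 63, 14.3%) were below 15.6% and the zinc finger genes (56 of 311, 18%) above it. Only 3 of 80 cytosolic ribosomal proteins and 3 of 1093 olfactory receptor genes held a peak. The olfactory genes were Olfr209, Olfr355 and Olfr729.

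Several lists tied to dendritic cell function held few or none. None of 25 genes of dendritic cell surface and antigen presentation and none of 22 AP-1 and immediate early factors had a KO-only peak at the promoter. Among 27 cytokine and chemokine genes the single one was Il18, whose product is cleaved by the inflammasome, and among 30 myeloid transcription factors there were Tcf4 and Zeb2, both known for plasmacytoid dendritic cells. TLR4 and NF-kB signalling gave 4 of 35 (11.4%), between the 2 levels, namely Chuk (the kinase IKKα), Map3k7 (the kinase TAK1), Irak4 and the deubiquitinase Cyld. Jak1, a kinase of GM-CSF receptor signalling, held one too. Of 23 genes of the CTCF and cohesin machinery there were 5, a share (21.7%) above both levels. These were the cohesin subunit Stag1, its regulators Pds5b and Wapl, the acetyltransferase Esco1 and the helicase Ddx5.

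The strongest promoter peaks show the arrangement in single genes, with folds that may be compared within a list only. At Ero1lb, an endoplasmic reticulum oxidase, the KO-only peak (chr13:12566850-12568362) had its summit in an intron, 1867 bp downstream of the start, with a CTCF fold of 10.1 in KO and 5.5 in KOLPS. The H3K4me3 peak there had folds of 30.9 (WT), 32.5 (WTLPS), 29.5 (KO) and 27.3 (KOLPS), and SMC1 was called in WT (3.9) and WTLPS (3.4) but in neither KO nor KOLPS. At Mki67, which encodes the proliferation marker Ki-67, the intronic summit lay 2129 bp downstream, with a CTCF fold of 8.86 and a KO SMC1 fold of 3.47. Its H3K4me3 folds were 32.3, 33.4, 25.4 and 15.5 in WT, WTLPS, KO and KOLPS. H3K4me3 was thus present in all 4 conditions at both genes, and SMC1 went with different conditions.

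At Sept10, a septin of the cytoskeleton, the summit lay 1199 bp downstream and the CTCF fold was 9.62. Ascc3, a helicase, had a fold of 8.4 at 2681 bp, and Pnpt1, the mitochondrial RNA-degrading enzyme, a fold of 8.36 at 1107 bp. At Taf7, a subunit of the general transcription factor TFIID, the summit lay in an exon at 2251 bp, with a fold of 8.86. H3K4me3 was called in all 4 conditions at these 4 genes and SMC1 in none. The peak at Ska3, a kinetochore protein, had a fold of 9.37 and lay also in the promoter of its divergent neighbour Mrpl57. It had no H3K4me3 peak in KOLPS, beside folds of 32.3, 33.9 and 32.4 in WT, WTLPS and KO. By −log10 q, Gm10718, Gm10715 and Gm10721, predicted genes in near-identical repeats at the start of chromosome 9, ranked among these, and reads there cannot be placed with certainty.

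Signalling genes had peaks near the detection limit inside strong H3K4me3 domains. At Map3k7 (chr4:31964887-31965371) the CTCF fold was 5.06, from 19 fragments, with H3K4me3 folds of 42.1, 36.2, 35 and 25.9 in WT, WTLPS, KO and KOLPS. Chuk had a CTCF fold of 4.81 in KO and 4.71 in KOLPS, Irak4 of 4.3 and Cyld of 4.05, the last from 15 fragments. Jak1 had a fold of 4.56 from 17 fragments. No SMC1, STAT5 or p65 peak was called at any of these 5 peaks in any condition. H3K4me3 was called in all 4 conditions at each of them.

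The housekeeping lists gave the strongest peaks among the fixed lists. The splicing factors Prpf38a and Srsf11 each had a CTCF fold of 8.1 in KO, from 31 fragments, with KOLPS CTCF folds of 5.5 and 7.33 and H3K4me3 in all 4 conditions. The zinc finger gene Zfp277 had a fold of 7.85, and the Mediator subunit Med30 one of 6.84 at a summit with 47.5% GC, well above the median of the set. Between the histone genes Hist1h2ac and Hist1h2bc a single peak, with a fold of 6.84 in KO and 4.45 in KOLPS, counted for both. The proteasome gene Psma5 had SMC1 in WT (3.44) and KO (3.94) and H3K27ac in all 4 conditions. SMC1 was called in the same pair of conditions at Ddx5, with folds of 4.06 and 3.94.

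A few listed genes departed from the usual pattern of marks. Il18 had no H3K4me3 peak at its KO-only CTCF peak (fold 4.05, 15 fragments) in any condition, and had H3K27ac in WT (11) and WTLPS (13.2) but not in KO or KOLPS. At Tcf4 SMC1 was called in all 4 conditions, with folds of 5.78, 4.29, 5.52 and 4.55 in WT, WTLPS, KO and KOLPS, beside a CTCF fold of 5.32 in KO. Polr2b, the second largest subunit of RNA polymerase II, had H3K4me3 at the peak in KO alone (5.39). Olfr355 and Olfr729, olfactory receptor genes, had no peak of any other list at their KO-only peaks.

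The 3 shared peaks printed for contrast had CTCF in all 4 conditions. The one nearest to Hcn4 had CTCF folds of 46.2 (WT), 47.9 (WTLPS), 27.9 (KO) and 19.6 (KOLPS), SMC1 folds of 34.7, 32.2, 6.94 and 7.28 in the same order, and no H3K4me3. None of the named promoter members had SMC1 folds of this size in WT. The shared peak nearest to Gm31371 lay at a promoter, with H3K4me3 folds of 90.5 (WT), 97.5 (WTLPS), 55.1 (KO) and 48.8 (KOLPS). The one nearest to A730009L09Rik lay outside genes and had no H3K4me3.

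Next, each mark was counted over all KO-only peaks. A KO H3K4me3 peak overlapped 2527 of them (57.8%, 56.4 to 59.3%), against 27.7% of all KO CTCF peaks. The WT list, from cells in which no CTCF peak was called at these places, overlapped 2333 (53.4%, 51.9 to 54.9%), against 27%. With LPS the shares were 46.5% in WTLPS (all KO CTCF peaks 24.4%) and 47.8% in KOLPS (all 23.2%). H3K4me3 lay at 1851 KO-only peaks (42.4%) in all 4 conditions and at 2661 (60.9%) in at least 1. Between WT and KO, 2244 had it in both, 89 in WT alone and 283 in KO alone, so most members with the mark in KO also had it in WT. The same split without the Igh locus was 2244, 88 and 273.

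At H3K4me3 domains, KO-only CTCF peaks sat inside wide and strong ones, away from their highest point. In KO the overlapping H3K4me3 peak had a median width of 3704 bp, against 1219 bp for all KO H3K4me3 peaks, and ranked at a median percentile of 84.4 in its list. At shared peaks with H3K4me3 the median width was 2874 bp and the percentile 76.0. The CTCF summit lay inside it in 92.7% of cases, at a median of 1118 bp from the H3K4me3 summit, while for shared peaks with H3K4me3 that distance was 663 bp. Promoter and other members differed here. H3K4me3 in KO covered 86.1% (84.6 to 87.4%) of the 2413 promoter peaks and 23.0% (21.2 to 24.9%) of the other 1957. Among shared peaks it covered 54.7% at promoters and 7.29% elsewhere.

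LPS went with fewer H3K4me3 calls at KO-only peaks in both genotypes. From WT to WTLPS, 332 members had the mark in WT alone and 33 in WTLPS alone, and from KO to KOLPS 490 had it in KO alone and 50 in KOLPS alone. The lists as a whole shortened too, from 24135 to 23314 peaks in CTCF-WT and from 25460 to 20960 in CTCF-KO cells. For H3K27ac the direction at members depended on genotype, with 441 gaining and 236 losing a call from WT to WTLPS, and 200 gaining and 316 losing one from KO to KOLPS. Among shared peaks losses exceeded gains in both genotypes, with 558 gaining and 672 losing in CTCF-WT and 331 and 715 in CTCF-KO cells. The H3K27ac lists as a whole shortened in both, from 83461 to 77050 peaks in CTCF-WT and from 81404 to 78202 in CTCF-KO cells. Each of these is a comparison of single lists, so that depth and threshold cannot be told apart from treatment.

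The 1957 members away from promoters formed a different group. H3K4me1 covered 64.3% (62.2 to 66.4%) of them in KO, H3K27ac 8.53% and SMC1 11.8%, and 11.7% (10.4 to 13.2%) had a KOLPS CTCF peak, against 24.6% (22.9 to 26.3%) of the promoter members. Among shared peaks away from promoters these shares were 32.0%, 6.96%, 19.6% and 60.0% in the same order. The median GC content given next is that of the KO-only peaks. Their median GC content was 29.7%, below the 33.7% of promoter members. At promoter members H3K4me1 covered 90.8% and H3K27ac 31.8%, so these marks were less frequent at the distal ones. SMC1 (10.4% at promoter members) and H3K27me3 (5.21% of distal and 3.77% of promoter members) were not. The Igh locus held 164 of the 480 members with SMC1 in KO and 119 of the 193 with H3K27me3 in KO. The split into promoter and distal members was not made without it. At shared promoter peaks H3K4me1 covered 52.6% and H3K27ac 28.7% in KO.

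H3K27ac followed with lower shares in the CTCF-KO lists. It was called at 1399 KO-only peaks in WT (32.0%, 30.6 to 33.4%) and at 935 in KO (21.4%, 20.2 to 22.6%), against 18.2% and 14.4% of all KO CTCF peaks. With the CTCF summit required to lie inside the KO H3K27ac peak, the share was 9.57% (8.73 to 10.5%) of KO-only and 6.4% (6.03 to 6.79%) of shared peaks. With LPS it was called at 1604 in WTLPS (36.7%) and at 819 in KOLPS (18.7%), against 18.7% and 12%. Of the members, 620 had H3K27ac in WT alone, 156 in KO alone and 779 in both. The GC content of H3K27ac summits moved with genotype in the whole list, with medians of 42.6% in WT, 40.6% in WTLPS and 46.5% in both KO and KOLPS, and its part in these shares was not tested.

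H3K4me1 was the most frequent mark and H3K27me3 the rarest. In WT and WTLPS, H3K4me1 covered 78.1% and 77.9% of KO-only peaks (all KO CTCF peaks 43.9% and 44.5%). In KO and KOLPS it covered 79.0% and 71.1% (all 46.3% and 35.8%). The peak names of these lists carry another antibody supplier than the labels. At 1150 members (26.3%) there was H3K4me1 and no H3K4me3 in any condition. H3K27me3 covered 2.24% in WT and 1.6% in WTLPS (all KO CTCF peaks 5.31% and 2.92%), and 4.42% in KO and 3.25% in KOLPS (all 13.4% and 3.91%). Of the 193 KO-only peaks with H3K27me3 in KO, 119 were in the Igh locus, and of the 142 in KOLPS, 107 were. Of the 4181 members outside the locus, H3K27me3 was called at 88 (2.1%) in WT and 74 in KO, and with LPS at 67 (1.6%) in WTLPS and 35 (0.837%) in KOLPS.

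SMC1 was called at fewer KO-only than shared peaks in each condition. SMC1 was called in WT at 367 KO-only peaks (8.4%, 7.61 to 9.26%), against 86.9% of shared peaks and 69.9% of all KO CTCF peaks. In WTLPS it was called at 337 (7.71%, all 68.6%), in KO at 480 (11%, 10.1 to 11.9%, all 18.9%) and in KOLPS at 291 (6.66%, all 12.3%). Among shared peaks the KO and KOLPS shares were 21.0% and 13.9%. The rule chose against CTCF peaks in the wild-type cells, where cohesin is a partner of CTCF, so the SMC1 shares of WT and WTLPS are not independent of it. The KO share was above the WT share only through the Igh locus. Outside it, 360 of 4181 members had SMC1 in WT and 316 in KO, of which 167 had both.

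Most KO-only peaks with STAT5 or p65 in KO lay in the Igh locus. STAT5 was called at 30 members in WT (0.686%, 0.481 to 0.978%) and 155 in KO (3.55%, 3.04 to 4.14%), against 1.4% and 1.89% of all KO CTCF peaks. Of the 155, 109 lay in the Igh locus, and the 46 outside it compare with 30 in WT, 18 of which were common to both. Over the members outside the locus the KO share was 1.1% (0.826 to 1.46%), against 1.27% (1.1 to 1.45%) of shared peaks there, and the WT share 0.718% against 1.6%.

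The p65 lists showed the same concentration. No KO-only peak had p65 in WT, which allows a share of up to 0.0878%, and 11 did in WTLPS (0.252%), against 0.0645% and 0.496% of all KO CTCF peaks. In KO there were 31 (0.709%) and in KOLPS 36 (0.824%), against 0.238% and 0.382%. Outside the Igh locus, p65 was left at 2 members in KO, the nearest genes being Skint5 and Skint11 on chromosome 4, and at 1 in KOLPS, also nearest to Skint11. As shares these were 0.0478% and 0.0239%, beside 0.0509% and 0.197% of shared peaks outside the locus. The genes were named after their values were seen.

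The KOLPS CTCF list, which the rule did not use, is the only other CTCF list of this genotype. A KOLPS CTCF peak overlapped 822 KO-only peaks (18.8%), against 59.5% of shared peaks and 50.7% of all KO CTCF peaks. Outside the Igh locus the share was 16.3%. The overlap rose with strength, from 7.83% of the KO-only peaks with −log10 q below 5 to 77.4% of the 235 with 12 or more, while shared peaks went from 13.1% to 90.0% over the same classes. These classes were not split by the Igh locus, which held 15 of the 20 KO-only peaks of highest −log10 q. In the other direction, 1461 KOLPS CTCF peaks overlapped neither wild-type list, and 831 of them (56.9%, 54.3 to 59.4%) overlapped a KO-only peak. Of the KOLPS-only peaks 56.4% lay at promoters, and their median GC content was 31.7%.

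Strong KO-only peaks still differed from shared peaks of like strength. Among those with −log10 q of 12 or more, 78.7% lay at promoters and 73.6% had KO H3K4me3, against 24.5% and 18.9% of the 7622 shared peaks of that class. SMC1 in WT was called at 7.23% against 95.5%, while SMC1 in KO was called at 33.2% against 34.8%. The class includes peaks of the Igh locus. Over all strengths outside that locus, SMC1 in KO was called at 7.56% of KO-only and 20.9% of shared peaks. In the weakest class, below 5, 44.3% of the KO-only and 26.9% of the shared peaks lay at promoters.

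**Figure D3:**
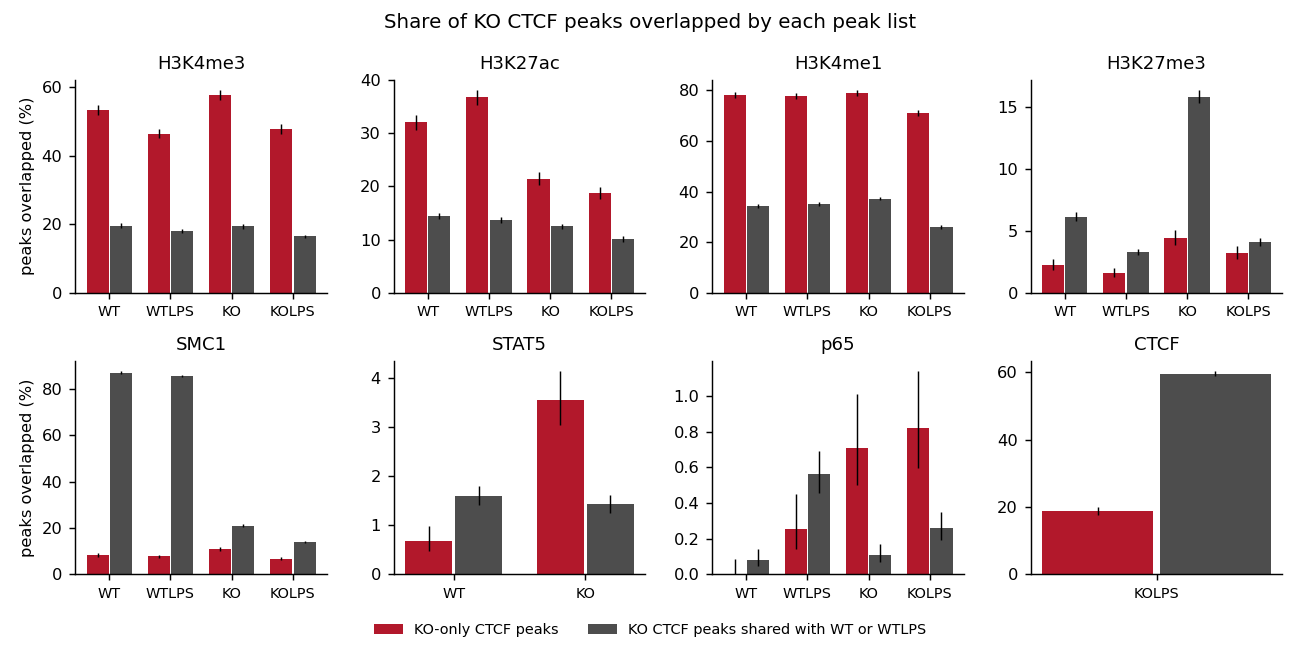
Share of KO CTCF peaks (vertical axes, %) overlapped by at least 1 bp by a peak of each antibody in each condition (horizontal axes), for KO-only and shared peaks. Error bars are 95% Wilson intervals. KO-only peaks are higher for H3K4me3, H3K27ac and H3K4me1 in every condition and far lower for SMC1 in WT, at 8.4% against 86.9%.

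At single members, the number of lists with a peak ran from 1 to 19 of the 30, with a median of 8 against 7 for shared peaks. No KO-only peak was found in 20 or more lists, and 384 (8.79%) had no peak of any other antibody. The member with the most lists was at Adam9, a membrane protease, 1110 bp downstream of the start. Its CTCF fold in KO was 5.57 and SMC1 folds were 3.44, 3.55, 3.47 and 3.64 in WT, WTLPS, KO and KOLPS. STAT5 was called there in both genotypes, as it was at Mbnl1, which encodes a splicing regulator, with folds of 9.45 in WT and 11.5 in KO. A KO SMC1 peak together with a KOLPS CTCF peak was found at 205 KO-only peaks (4.69%) and at 17.9% of shared ones. Outside the Igh locus it was found at 71 of 4181 KO-only peaks (1.7%, 1.35 to 2.14%) and at 17.7% of shared ones.

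The CTCF core sequence was all but missing. A 14-base core of the CTCF motif, with at most 1 mismatch on either strand within 50 bp of the summit, was found at 1 of 4370 KO-only peaks (0.0229%, 0.00404 to 0.13%). It was found at 33.4% (32.6 to 34.1%) of shared peaks, at 13.4% of WT CTCF peaks without a partner in KO or KOLPS, and at 0.798% of protein-coding start sites. Among WTLPS CTCF peaks without a WT partner the share was 3.13%. Of the 1461 KOLPS CTCF peaks that overlapped neither wild-type list, 2 had it (0.137%), so KO-only peaks were not alone in this. In windows 1 kb away from KO-only summits the share was 0.0801%. The rule left out places with a wild-type CTCF peak, and shared peaks were chosen for having one. The core shares of both sets are therefore not independent of the rule. The 1 member with the core, whose sequence is printed above, lay outside genes (chr3:31769284-31769541), 133328 bp upstream of the start of Kcnmb2. Its fold was 4.81 and no other list had a peak there.

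The count was also low within classes of GC content. Shared peaks with GC below 40% had the core in 11.9% (11 to 12.8%) of cases, and none of the 3736 KO-only peaks below 40% did, which allows up to 0.103%. Among the 634 KO-only peaks with GC of 40% or more there was 1. In the strongest class, −log10 q of 12 or more, the core lay at 0 of 235 KO-only and 44.1% of shared peaks. A missing match says only that these letters were not in the window.

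The GC content within 50 bp of KO-only summits had a median of 31.7% (quartiles 27.7 and 36.6%), and rose to 40.6% at 1 kb to either side. Shared peaks had a median of 45.5% at the summit and 1 kb away alike, and start sites of 59.4%. WTLPS CTCF peaks without a WT partner, with a median fold of 4.19, had a median GC content of 34.7%, and 66.3% of them were below 40%. GC was below 40% at 85.5% of KO-only and 32.4% of shared summits. KO-only peaks at promoters had a median of 33.7%, while sites 1000 bp downstream of starts with KO H3K4me3 had one of 47.5%. A run of at least 15 A or T bases lay in 14.5% of KO-only and 7.8% of shared windows. It lay in 19.5% of windows of WT-only peaks, 24% of those of WTLPS peaks without a WT partner and 13.9% of those of KOLPS-only peaks. Repeats covered at least 50% of the window in 17.2% and 15.2%.

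The share of KO CTCF peaks that were KO-only fell with rising GC content. It was 51.1% (49.4 to 52.8%) below 30% GC, 29.9% from 35 to 40%, 4.75% from 45 to 50% and 0.234% (0.107 to 0.509%) from 55% upward. Peaks of other antibodies that were called in KO and in neither wild-type list showed a like slope in part. Below 30% GC and from 55% upward, the shares without a wild-type partner were 49.3% and 18.7% for SMC1, 53.1% and 5.32% for H3K4me3, 70.7% and 13.9% for STAT5, and 21.1% and 21.9% for H3K27ac. The share of WT CTCF peaks without a KO partner also fell, from 88.0% to 62.4%, and that of WTLPS CTCF peaks without a WT partner from 21.2% to 2.46%. The part of GC content in the KO-only set was not tested.

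**Figure D4:**
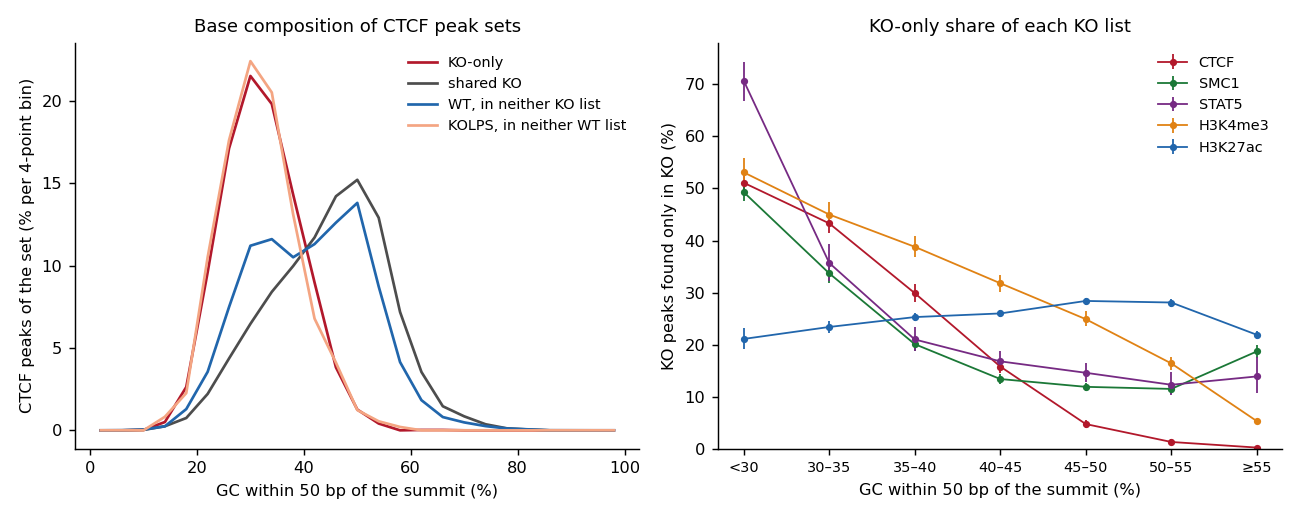
The left panel gives the share of each CTCF peak set (vertical axis, % per bin of 4 points) by GC within 50 bp of the summit (horizontal axis, %), and the right panel the share of each KO list found only in KO, by GC class, with 95% Wilson intervals. KO-only peaks have a median GC of 31.7% against 45.5% for shared peaks, and the KO-only share of CTCF falls from 51.1% to 0.234% with rising GC.

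Motifs of other factors were searched as fixed letters on both strands of the same 101-base windows. Several promoter motifs were rarer at KO-only peaks than at start sites. GGGCGG, the core of SP and KLF factors, lay at 9 (0.206%), against 2.32% of all KO CTCF peaks and 28.2% of start-site windows. ACCGGAAG or CCGGAAGT, overlapping forms of the ETS site, lay at 2 (0.0458%), against 0.213% and 4.11%. AGATGGCGG (YY1) and GCGCATGCG (NRF1) lay at none, which allows up to 0.0878%, against 0.998% and 1.09% of start-site windows. CCAATCAG or CCAATGAG (NFY) lay at 0.412%, against 0.432% and 2.09%, while ACTACAATT (ZNF143) lay at 0.32%, above the 0.129% of all KO CTCF peaks and the 0.155% of start-site windows. Among motifs of inducible and lineage factors, GAGGAAGT (PU.1) lay at 0.229%, against 0.466% and 1.49%, and TGTGGTT (RUNX) at 1.9%, against 2.92% and 1.62%. TTGCNNAA (CEBP) lay at 5.56%, against 4.46% of all KO CTCF peaks and 2.55% of start-site windows. For TTCNNNGAA (STAT5) the 3 shares were 3.48%, 2.95% and 2.36%, for TGANTCA (AP-1) 2.84%, 2.45% and 1.78%, and for GGGANTTTC (NF-kB) 0.275%, 0.228% and 0.328%.

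The Igh locus, noticed after its values were seen, spans chr12:113254830-116010093 and holds 233 annotated gene segments, from which B cells assemble antibody heavy chains. It held 189 KO-only peaks (4.32%) and 61 shared peaks (0.387%), and 15 of the 20 KO-only peaks of highest −log10 q. The 2 with the highest fold, whose sequences are printed above, each had a fold of 17.5. The one near Ighv1-55 (chr12:115203652-115204579) had a KOLPS CTCF fold of 16.5, SMC1 folds of 16.8 in KO and 14.4 in KOLPS, p65 folds of 9.03 and 9.91, and a STAT5 fold of 13.3 in KO. No WT list had a peak at it, and of the WTLPS lists only H3K4me1 did. The one near Ighv8-12 (chr12:115641178-115642169) was called in 15 lists, all from CTCF-KO cells.

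Across the locus the CTCF-KO lists of unrelated antibodies held more peaks than the CTCF-WT lists. Numbers for WT, WTLPS, KO and KOLPS were 162, 141, 250 and 254 for CTCF, 89, 80, 283 and 276 for SMC1, 0, 1, 53 and 64 for p65, and 11, 9, 99 and 110 for H3K27ac. STAT5 had 5 in WT and 188 in KO, and these 188 were 2.74% of its list. Among the 189 KO-only peaks, 164 had SMC1 in KO and 7 in WT, 141 (74.6%) had a KOLPS CTCF peak, and 10 had H3K4me3 in KO. Their median GC of 33.7% was like that of the set as a whole. They were thus as poor in G and C as the other members, with less H3K4me3 and more SMC1 and STAT5 in KO. What sets the locus apart in the CTCF-KO lists was not tested.

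**Figure D5:**
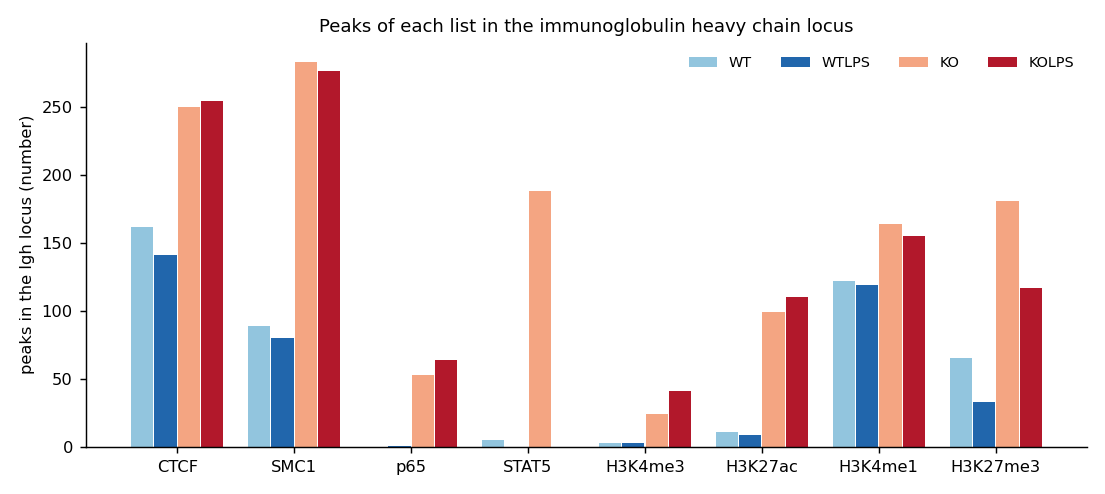
Number of peaks in the immunoglobulin heavy chain locus (vertical axis) for each antibody (horizontal axis) and condition (bars). The KO and KOLPS bars exceed the WT and WTLPS bars for every antibody, from 0 and 1 to 53 and 64 for p65.

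KO-only peaks of CTCF coincided with KO-only peaks of p65 and STAT5 mostly there. Of 76 p65 peaks called in KO and in neither wild-type list, 36 (47.4%) overlapped a KO-only CTCF peak. Of 1559 such STAT5 peaks 135 did (8.66%), and of 6080 such SMC1 peaks 256 did (4.21%). In the locus lay 34 of the 36, 111 of the 135 and 141 of the 256. Of 5262 such H3K4me3 peaks 199 overlapped one (3.78%), 13 of them in the locus, and of 21114 such H3K27ac peaks 121 did (0.573%), 54 of them in the locus. KO SMC1 with a KOLPS CTCF peak and without SMC1 in WT or WTLPS was found at 157 members, of which 129 lay in the locus. The other 28 were among the 4181 members outside it.

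Outside the locus the KO-only peaks were spread over the autosomes at 1.24 to 2.36 per Mb, and shared peaks at 4.66 to 9.6. Chromosome X held 17 KO-only peaks (0.0994 per Mb) and shared peaks at 1.2 per Mb, both below every autosome, and chromosome Y was lower still (0.0218 and 0.316 per Mb). The 2 peaks on chromosome Y lay nearest to Zfy1 and Eif2s3y. Apart from the Igh locus, the densest 1 Mb windows held 19 peaks in a zinc finger gene cluster on chromosome 4, 17 around histone genes on chromosome 13 and 16 in another zinc finger cluster on chromosome 13. A median of 2 was found over the 1421 windows with any.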

How the data were processed

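Paired-end libraries had been prepared by tagmentation. Per the study's methods, the authors mapped trimmed reads to mm10, discarded duplicate reads and used MACS2 for peak calls; whether input was the control is not given in the sources used here. The submitters' processing notes name BWA 0.7.12, Picard 1.77, MACS2 2.1.2 and deepTools 3.1.3, while the methods name other versions of these tools. The deposited values are a fold ratio of pileup to background and −log10 p and −log10 q values per peak, averaged over regions in the broad lists (H3K4me1, H3K27me3). CTCF lists end near −log10 p of 7.0, and p65 lists were filtered against problem regions by the authors. The lists give no read depth.

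From these lists, fragment numbers were recovered from fold and p (tolerance 0.002, at least 99.97% of CTCF peaks with −log10 p below 25). Peaks overlapped when they shared at least 1 bp. Promoters reached 2.5 kb to either side of the longest transcript's start (GENCODE vM21), and sequences were read from the RefSeq copy of GRCm38.p6. Python 3.11.15, numpy 2.4.6, pandas 2.3.3 and scipy 1.17.1 were used. Shares have 95% Wilson intervals, and with 1 list per condition no test between conditions was made. Overlap and motif code was tested on simulated data. Peaks were named in fewer than 20 lists, by −log10 q: the 10 strongest members at promoters, the 5 strongest elsewhere, up to 4 per gene list, 5 with KOLPS CTCF and KO SMC1 but no wild-type SMC1, those with an exact CTCF core, the 3 in most lists, and the 3 shared peaks of highest fold with a core. Members, lists and rules were chosen with earlier results of these data known. The 4 input samples had no list. Some results are not reported here.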

Additional observations from a re-analysis of the deposited data

How the results depend on the processing

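With 1 list per condition, replicate error is unknown and folds are comparable within a list only. The study's reporting summary gives read totals by antibody and condition, which were not used here. No paired analysis was possible because each condition had a single list without replicate columns. Of 89 alternative values for 10 results, 51 stayed within the interval of the reported value (the number of members within 1.5 times) and 38 moved; the cause was not tested. Leaving out members within 500 bp of a wild-type peak or those on X and Y moved none, and no member lay in 20 or more lists.

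Keeping only KO CTCF peaks with −log10 p of 10 or more left 1275 members, with 71.1% at promoters, 0.0% with the CTCF core, 73.9% with H3K4me3, 32.2% with H3K27ac, 17.9% with SMC1 in KO, 10.1% with SMC1 in WT, 7.69% with STAT5, 2.59% with p65 (KOLPS) and 40.5% with KOLPS CTCF. These shares were not split by the Igh locus. Over all members, that locus held 35 of the 36 with p65 in KOLPS. Without the Igh locus, chosen after seeing the data, the shares were 60.2% for H3K4me3, 7.56% for SMC1 in KO, 1.1% for STAT5, 0.0239% for p65 and 16.3% for KOLPS CTCF. Requiring a wild-type partner to cover 50% of the KO peak gave 57.5% at promoters, 60.0% with H3K4me3, 23.3% with H3K27ac, 9.36% with SMC1 in WT and 21.8% with KOLPS CTCF. With the WT list alone in the rule, the KOLPS CTCF share was 20.2%.

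When the member's summit had to lie inside the partner peak, shares were 53.6% for H3K4me3, 9.57% for H3K27ac, 9.11% for SMC1 in KO, 6.43% in WT, 3.0% for STAT5, 0.503% for p65 and 13.5% for KOLPS CTCF. With partner peaks of −log10 p of 10 or more they were 51.8%, 11.7%, 6.2%, 3.34%, 2.06%, 0.32% and 6.06% in the same order. The promoter share was 24% with promoters of 1 kb to either side, 63.6% with the starts of all transcripts and 48.7% with protein-coding genes only.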
